A study of Mus musculus with 4 samples.

Results

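Upp1 and Pygl encode enzymes that break down a nucleoside and a stored sugar, and both transcripts were higher, by 4.05-fold and 4.31-fold, in testis cells without surface ckit than in those with it. The genes were chosen by name from the authors' deposited table of differing genes, in which each had 1 probe set: the 2 are among 374 listed probe sets, and among 45037 non-control probe sets on the arrays. That table was itself made from the same 4 arrays with a 2-fold threshold. The direction and size of the ckit difference in these genes, also beside their replicate spread, are therefore a description and were not tested here.

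The arrays held RNA from testis cells of 2-week-old Sox2GFP mice (129SvJae/BL6), which carry a green fluorescent reporter of Sox2, a transcription factor of stem and progenitor cells. Reporter-positive live cells were separated by an antibody to ckit (the stem cell factor receptor) into Sox2GFP+ckit- and Sox2GFP+ckit+ populations (ckit- and ckit+ cells below), so both groups carry the reporter and both were reporter-positive. Each group had 2 biological replicates, each a pool of 20 testes, and the labels describe ckit- cells as able to regenerate damaged tubules and ckit+ cells as not able to. A pool held 20000 to 90000 cells, which may still mix cell types, and for every transcript below, fewer cells of a type and less RNA per cell cannot be told apart.

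Uridine phosphorylase cleaves uridine, with phosphate, to uracil and ribose-1-phosphate, so it returns the base to the pyrimidine pool or to breakdown and releases a sugar phosphate that can enter carbon metabolism. Upp1 encodes the widely expressed form of the enzyme and Upp2 a second form best known from liver. Glycogen phosphorylase removes glucose units from glycogen as glucose-1-phosphate, the rate-limiting step of glycogen breakdown, and is switched on by phosphorylation through phosphorylase kinase. Pygl encodes the form named for liver, while Pygm and Pygb encode those of muscle and brain. Both enzymes are thus phosphorylases that yield a sugar phosphate without spending ATP.

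In the RefSeq annotation of GRCm38.p6, Upp1 is a protein-coding gene on the plus strand at chr11:9118008-9136170 and Pygl one on the minus strand at chr12:70190815-70227683. The stretches of 250 bases before the first annotated start of Upp1 (chr11:9117758-9118007, plus strand) and before the only annotated start of Pygl (chr12:70227684-70227933, minus strand) are shown because both transcripts differed in the same direction. Capitals mark matches to any of 7 searched motifs, described after the sequences.

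Upp1: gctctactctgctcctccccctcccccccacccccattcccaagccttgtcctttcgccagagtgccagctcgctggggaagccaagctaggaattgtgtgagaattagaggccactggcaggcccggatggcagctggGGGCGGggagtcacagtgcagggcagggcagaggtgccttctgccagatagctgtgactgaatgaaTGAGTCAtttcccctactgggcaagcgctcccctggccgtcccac

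Pygl: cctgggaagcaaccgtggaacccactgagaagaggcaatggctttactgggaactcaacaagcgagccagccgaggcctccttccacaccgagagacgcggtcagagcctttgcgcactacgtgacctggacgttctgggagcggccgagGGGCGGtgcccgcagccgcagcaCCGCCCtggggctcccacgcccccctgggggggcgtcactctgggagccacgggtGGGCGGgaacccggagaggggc

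The motifs, searched on both strands, were the TATA-box letters TATAAA, the box named for its letters CCAAT, the GC-box letters GGGCGG, the motif CCGGAA of ETS factors (the family of Etv5), the AP-1 motif TGANTCA, the E-box letters CACGTG and the motif GCGNGGGCG of EGR factors, which can overlap a GC box. The Upp1 window held 1 GC box that begins 111 bases before the start and 1 AP-1 match, TGAGTCA, that begins 45 bases before it. The Pygl window held 3 GC boxes, beginning 100, 77 and 22 bases before the start, the middle one on the opposite strand. A GC box lay in 32.7% and an AP-1 match in 6.75% of all 32851 RefSeq promoter windows of this length, so the GC box is the one motif that both windows share and it is common. The remaining motifs had no match in either printed window. RefSeq gives Upp1 further starts 95 and 499 bases downstream of the first: the window of the nearer one holds the same GC box and AP-1 match, and that of the farther one holds neither but has 1 ETS match, a motif found in 12% of windows. The Pygl window was 69.2% G and C with 20 CpG dinucleotides and the printed Upp1 window 62.4% with 6, against medians of 52.4% and 6 over all windows. The arrays do not show which start was used, and a match is a description of letters only.

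**Figure D1:**
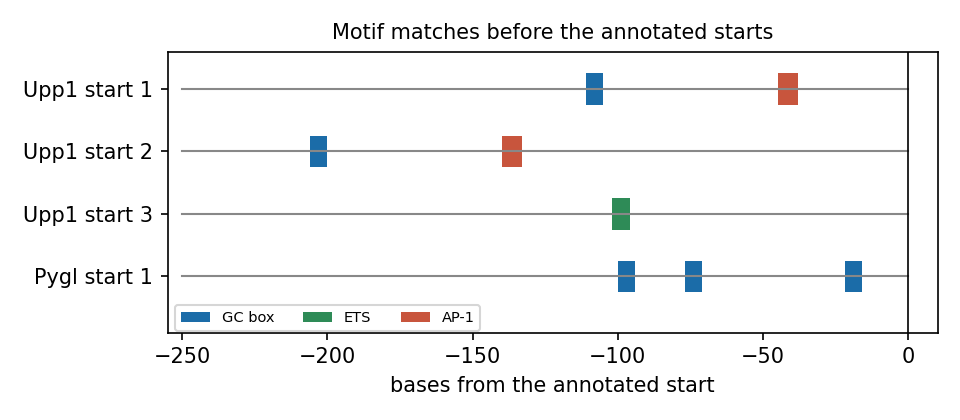
Matches to the searched motifs in the 250 bases before each RefSeq start of Upp1 (3 starts) and Pygl (1 start). The horizontal axis gives bases from the annotated start and each box covers 1 match. The windows of Upp1 starts 1 and 2 overlap and show the same GC box and AP-1 match, and Pygl shows 3 GC boxes.

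Levels of different probe sets are not comparable, so each gene is set only against itself. The RMA level of Upp1 on the log2 scale was 8.77 and 8.65 in ckit- replicates 1 and 2, and 6.63 and 6.75 in ckit+ replicates 1 and 2. Both ckit- arrays were above both ckit+ arrays, and the groups did not overlap. The group means were 8.71 ± 0.08 in ckit- and 6.69 ± 0.08 in ckit+ cells (log2 level, SD, n = 2). The mean log2 difference, ckit- minus ckit+, was 2.02 with a limma standard error of 0.16, which corresponds to 4.05-fold. The lowest ckit- array exceeded the highest ckit+ array by 1.90 (log2), 16.0 times the larger gap between replicates of a group (0.12).

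Pygl levels were 9.65 and 9.73 in ckit- replicates 1 and 2, and 7.55 and 7.60 in ckit+ replicates 1 and 2 (log2 level). The groups again did not overlap. The means were 9.69 ± 0.06 in ckit- and 7.58 ± 0.04 in ckit+ cells (log2 level, SD, n = 2), a log2 difference of 2.11 with a limma standard error of 0.16, or 4.31-fold. The gap between the nearest arrays of the groups was 2.04 (log2), 25.6 times the larger replicate gap (0.08). For scale, the median replicate gap over all probe sets was 0.21 in ckit- and 0.19 in ckit+ cells. Replicates of both genes lay closer together than that. The authors' comparison of these arrays also weighed differences against replicate spread. If its outcome helped to choose the listed probe sets, small replicate gaps were favoured. The small gaps of both genes, and the ratios to them, are therefore a description only.

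**Figure D2:**
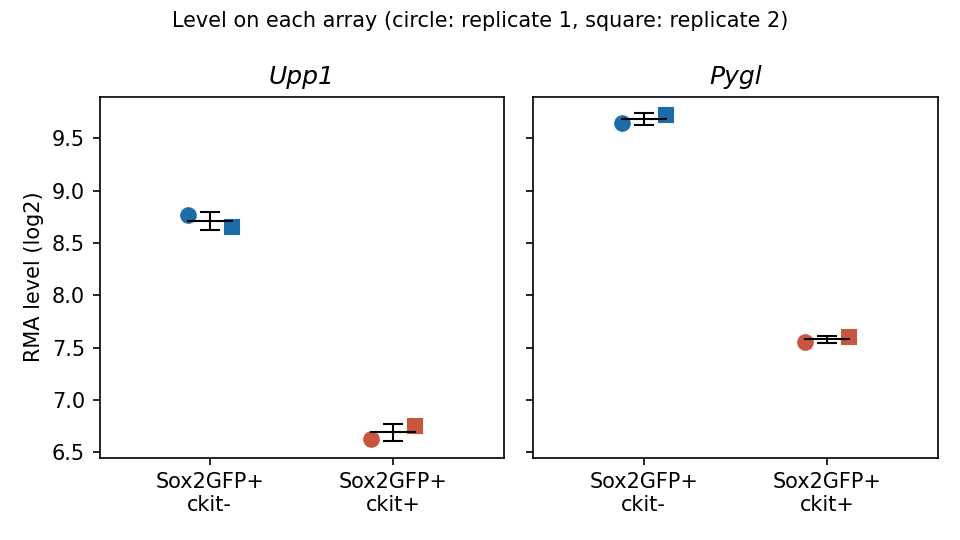
RMA level (log2) of Upp1 and Pygl on each of the 4 arrays, by sorted population. Coloured circles are replicate 1 and squares replicate 2, and black bars give the mean and SD of 2 arrays. In each panel both ckit- arrays lie about 2 log2 units above both ckit+ arrays. Heights are not comparable between the panels.

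The size of the difference was much the same in every pairing of a ckit- with a ckit+ array. For Upp1 the 4 pairings gave log2 differences of 1.90 to 2.14, and for Pygl 2.04 to 2.17. Replicate 2 was above replicate 1 in both groups for Pygl, whereas for Upp1 it was below in ckit- and above in ckit+ cells. The log2 difference of Pygl exceeded that of Upp1 by 0.09, with a standard error of 0.23 when their limma errors are combined as independent, so the data do not separate the sizes of the differences. The authors' deposited table, whose normalization is not given in the sources used here, puts the genes in the opposite order. For Upp1 the authors' deposited table gives 8.714 as the ckit- mean, 6.642 as the ckit+ mean and a ratio of 4.2. For Pygl the authors' deposited table gives 9.425 and 7.405 and a ratio of 4.06.

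Among all 45037 probe sets, Pygl had the 25th and Upp1 the 30th highest log2 difference towards ckit- cells. A difference of at least 4-fold towards ckit- cells was found in 0.0666% of probe sets, and the median log2 difference of all probe sets was 0.00. Non-overlapping arrays with higher values in ckit- cells were common, in 24.2% of probe sets, so that both genes show this separates them little from the rest. Limma called 0.193% of probe sets as higher in ckit- cells at a Benjamini-Hochberg adjusted p under 0.05, and the probe sets of both genes were among them. The authors' selection on these arrays favours such a call without fixing it, so their place among the called probe sets is no evidence of its own. With any 1 of the 4 arrays left out limma called 0 probe sets, with 4513 to 6422 at an unadjusted p under 0.05, while the log2 difference stayed between 1.96 and 2.08 for Upp1 and between 2.07 and 2.15 for Pygl.

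**Figure D3:**
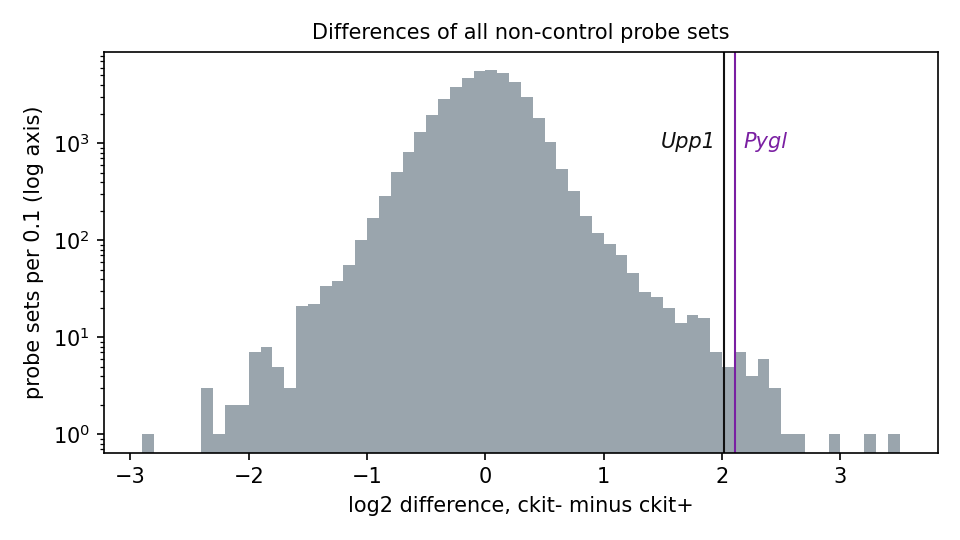
Number of probe sets (log axis) by log2 difference, ckit- minus ckit+, in bins of 0.1 over all 45037 non-control probe sets. Vertical lines mark Upp1 at 2.02 and Pygl at 2.11, both in the sparse right tail.

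Most genes of the surrounding pathways carry no name in the files, because only the authors' table of differing genes pairs probe sets with genes. Of 29 genes listed for the salvage and breakdown of uridine and other pyrimidines, Upp1 was the 1 named. Upp2, the uridine kinases Uck1 and Uck2 and the nucleoside transporters of the list were not analysed here. Of 31 genes listed for glycogen synthesis and breakdown, Pygl was the 1 named. The glycogen synthase genes Gys1 and Gys2 and the phosphorylase kinase subunits were not analysed here, nor were Pygm and Pygb. Of 25 genes listed for glycolysis and glucose uptake 0 were named. The list counts therefore say nothing about whether either pathway moved as a whole.

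The genes with profiles most like those of Upp1 and Pygl were sought among the named genes, by the root mean square difference between profiles centred on their own mean over the 4 arrays. For Upp1 the order was Rasgrp2, an exchange factor for Rap1 (0.04 on the log2 scale), Large2, a glycosyltransferase acting on dystroglycan (0.04), Arhgef15, an exchange factor known from endothelium (0.04), Pygl itself (0.09) and Etv5, a GDNF-induced ETS factor (0.09). For Pygl it was Rasgrp2 (0.06), Large2 (0.07), T, the transcription factor brachyury (0.07), Upp1 (0.09) and Gfra1, the GDNF co-receptor (0.11). Each of the pair was thus the 4th most alike of 221 candidates to the other, and their 4 array values correlated with r = 0.997, a description over 4 points that fall into 2 groups. All candidates came from the same author-selected table and share these arrays.

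Large2, second in both orders, had log2 levels of 7.72 and 7.61 in ckit- and 5.55 and 5.61 in ckit+ cells. Arhgef15 had 8.66 and 8.46 in ckit- and 6.48 and 6.67 in ckit+ cells. For Rasgrp2 the levels were 7.03 and 6.98 in ckit- and 4.87 and 5.00 in ckit+ cells, so its ckit+ replicate 1 lay below that array's lower quartile (4.95) and its ckit+ replicate 2 just above (4.93). For T they were 5.97 and 5.94 in ckit- and 3.86 and 3.76 in ckit+ cells, both ckit+ values far below those quartiles. Near or under the lower quartile signal may not be separable from background, so no fold is given for Rasgrp2 or T and their places in the orders are uncertain. The likeness of all these genes to Upp1 and Pygl was fixed by choosing the smallest profile differences. With quantile normalization applied once more, 4 of the 5 most alike genes were shared for each member. Ranked by Pearson r instead, 2 of 5 were shared for Upp1 and 0 of 5 for Pygl, so the order depends on the measure.

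**Figure D4:**
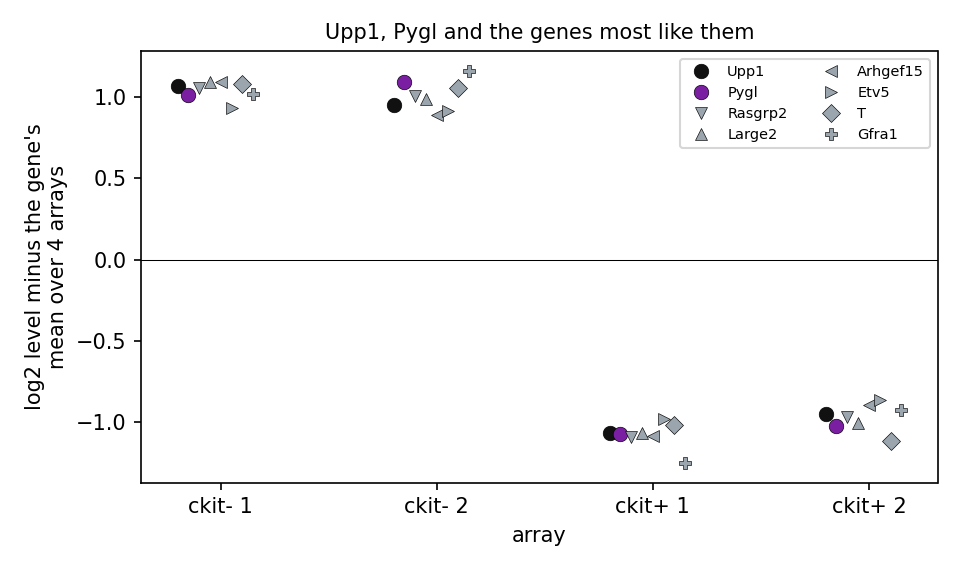
Log2 level minus the gene's own mean over the 4 arrays, for Upp1 (black), Pygl (purple) and the named genes most like either (grey, 1 marker shape per gene). Arrays are on the horizontal axis, with small sideways offsets for legibility. All 8 genes lie near 1 on the ckit- arrays and near -1 on the ckit+ arrays.

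The sort and the cell types were checked with genes that the files name. Kit, whose product defined the sort, had higher levels in ckit+ cells in both of its probe sets (log2 means 9.65 against 6.83, and 8.09 against 5.83). The brighter one passed limma's threshold and the other, with ckit- replicates 0.78 apart, just missed it (limma's adjusted p = 0.052). Sox2 had no named probe set. Of 26 gene symbols listed for undifferentiated spermatogonia, among which Ngn3 and Neurog3 denote the same gene, 10 were named. Higher levels in ckit- cells were found in 10 of the 10, and 8 passed limma's threshold, beside 0.193% of all probe sets. The 8 include T, whose ckit+ levels lay far below the lower quartile, where signal may not be separable from background. Lhx1, not called, was also below it in ckit+ replicate 2. The median log2 difference of the 10 was 1.86, against 0.00 over all probe sets, and Upp1 and Pygl, left out of that list, lay above this median. Ret, the GDNF receptor, had a log2 difference of 2.24 ± 0.17 (limma's SE), Gfra1 2.18 ± 0.19 and Etv5 1.85 ± 0.16. Of 10 genes listed for differentiating spermatogonia 4 were named, with higher levels in ckit+ cells in 4 of 4 and 2 called, Kit (by its brighter probe set) and Stra8, beside 0.115% of all probe sets. Every named gene comes from the authors' table of differences on the same arrays, in which 196 of 374 probe sets were higher in ckit- cells. These directions, sizes and calls are therefore not independent evidence, and all probe sets together are not a like background for them.

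Single markers of other cell types had higher levels in ckit- cells alongside Upp1 and Pygl. Plvap, a protein of endothelial caveolae and the 1 named of 9 listed endothelial genes, passed limma's threshold (adjusted p = 0.040). Its log2 levels were 6.77 and 6.91 in ckit- and 5.40 and 5.39 in ckit+ cells. Arhgef15, known from endothelium but outside that list, was named only because its profile was among the most like that of Upp1. Its higher levels in ckit- cells were fixed by that choice, so it is not counted here as a further endothelial marker. Tagln (transgelin), the 1 named of 5 listed for peritubular myoid cells, had 6.81 and 6.89 in ckit- and 5.97 and 6.001 in ckit+ cells, with an adjusted p of 0.10 by limma, above the threshold. Of the 11 Sertoli, 7 Leydig and 6 macrophage genes listed, 0 were named, so their levels were not analysed here. The part of other cell types in the differences of Upp1 and Pygl was not tested.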

How the data were processed

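RNA from 4 sorted cell pools (5 ng each, amplified and biotin-labelled) was measured on 4 one-colour arrays. The deposited value table held log2 levels that the authors had made with RMA, per the submitters' processing notes (the array model is not given in the sources used here). Median levels ran from 6.39 to 6.42 over the arrays, while the quartiles differed by group. Lower quartiles were 5.01 and 5.04 in ckit- and 4.95 and 4.93 in ckit+ arrays. Upper quartiles were 8.05 and 7.99 in ckit- and 8.12 and 8.15 in ckit+ arrays. The authors' deposited comparison table held log2 group means, their standard errors (entered here as a score), a ratio (linear fold), and p-values from a t-test with Benjamini-Hochberg adjustment over 605 tests, per the file headers; its p-values were not used.

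Names were found for 261 of those 374 probe sets (230 genes): 61 by RefSeq accession, Upp1 and Pygl included, 100 by a symbol and 100 by a full gene name matched by hand, all through RefSeq's GRCm38.p6 gene table. The brightest probe set stood for a gene with several. The mean of several probe sets, planned as an alternative for Upp1 and Pygl, could not differ, since each had 1 named probe set.

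limma 3.58.1 in R 4.3.3 (lmFit and eBayes, two-sided, ckit+ against ckit-, no covariates) was fitted to 45037 probe sets after removal of 64 control probe sets, with no filter, and tested on simulated data. Alternatives were a replicate block, renewed quantile normalization, median centring, an intensity trend, a filter on dim probe sets, an ordinary t-test, the authors' group means and each array left out. With 2 arrays per group the number of arrays limits the precision, and an exact permutation test cannot go below p = 0.333. The genes named follow a rule: both genes, Kit and Sox2, named members of the pathway and marker lists, and the 5 most alike genes of each; Pdk1, Xylb, Slc27a2, Hibch, Decr1 and Rrm2 were added after their values had been seen. The genes, lists and motifs were chosen with earlier results of these data known. Promoter sequences are RefSeq's (GRCm38.p6), with both genes matched. Promoters of other genes entered only the shares and medians over all windows, and protein sequences were not used here.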

Additional observations from a re-analysis of the deposited data

How the results depend on the processing

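The log2 difference of Upp1, ckit+ minus ckit-, was -2.02 and stayed between -2.09 and -1.96 under 8 alternatives, each within the SD between replicates. That of Pygl, -2.11, stayed between -2.20 and -2.02 under 8 alternatives, 6 of them within that SD. It was -2.20 with quantile normalization once more and -2.02 from the group means of the authors' deposited table. For the replicate block and the 4 cases with 1 array left out, staying within that SD was fixed in advance for both genes. The block leaves the difference of equal-sized groups unchanged, and leaving out 1 of 2 arrays shifts it by no more than that SD. With the replicate number as a block the differences of Upp1 and Pygl, -2.02 and -2.11, could not change. Limma's calls over all probe sets rose from 139 to 554 with that block. The deviations of arrays with the same number correlated at 0.26 across probe sets, but 2 pairs do not show that the numbers pair the samples. An intensity trend gave 419 calls and the ordinary t-test 1 (5346 at an unadjusted p under 0.05). That 1 call was not among the 139 of the main setting, so neither Upp1 nor Pygl was called by the t-test. Leaving out 1 array gave 0 calls in each of the 4 cases (4513 to 6422 at an unadjusted p under 0.05), and so 0 for the 2 named pathway genes, whose directions did not change; fewer arrays leave fewer degrees of freedom, and the spread then comes from the group that still has 2 arrays. Ranked by Pearson r, 2 of the 5 genes most like Upp1 and 0 of the 5 most like Pygl were kept. The cause of the other gaps was not tested.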

Other observations

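A few other genes of metabolic enzymes or transporters in the deposited table were picked out after their values had been seen; they follow no fixed list, and no pathway was tested. Pdk1, a kinase that inhibits pyruvate dehydrogenase and so limits the entry of pyruvate into the mitochondrial oxidation pathway, was higher in ckit- cells like Upp1 and Pygl, with log2 levels of 8.14 and 8.32 against 6.89 and 6.79 in ckit+ cells, or 2.62-fold (limma's adjusted p = 0.045). Slc27a2, a fatty acid transporter and very long-chain acyl-CoA synthetase, was 2.90-fold higher in ckit+ cells (9.44 and 9.33 against 7.85 and 7.84, limma's adjusted p = 0.037). Xylb, which encodes xylulokinase, had log2 levels of 9.77 and 9.86 in ckit+ and 8.69 and 8.61 in ckit- cells, with limma's adjusted p = 0.057, above the threshold. Decr1, an enzyme of unsaturated fatty acid oxidation, and Hibch, an enzyme of valine breakdown, also had higher levels in ckit+ cells, with log2 differences of 1.09 ± 0.18 and 1.00 ± 0.16 (limma's SE), and missed the threshold too (adjusted p = 0.091 and 0.081 by limma). Rrm2, a subunit of ribonucleotide reductase, which makes deoxynucleotides, had higher levels in ckit+ cells in both of its probe sets, by log2 differences of 1.07 ± 0.16 and 1.12 ± 0.18 (limma's SE), and neither passed (adjusted p = 0.069 and 0.079 by limma).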
